A study of Mus musculus with 8 samples.

Results

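The 37 genes described here are transcripts known from macrophages, described over the 8 libraries of a cell-cycle series of mouse stem cells, out of 54838 genes in the deposited count table. They were chosen by symbol as macrophage genes with earlier results of these libraries known, above all their levels in mitotic cells collected by shake-off, so comparisons of these genes that use the mitotic libraries, counts of calls included, are a description from which nothing is read. All 37 symbols were found in the table, and 33 passed the filter on low counts that left 19101 genes for testing. Ptprc, Aif1, Ccl4 and Pirb did not pass it. The question was which of the 37 were high in the mitotic libraries alone and which the stem cells showed in every state.

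The cells were male mouse induced pluripotent stem cells, which the labels call ESC, maintained over irradiated feeders in medium holding serum, LIF and a pair of kinase inhibitors. Mitotic cells had been moved to gelatin a day earlier, held in nocodazole, a drug that blocks microtubule growth, at 200 ng/ml for 6 h, and then detached by shaking. Early G1 and late G1 cells were shaken-off cells freed of the drug, plated again on gelatin and taken 1 h and 3 h later. Asynchronous cells were a cycling population without the drug. Each of the 4 states had 2 libraries, and the labels give 2 independent clones as the biological replicates. The p-values rest on a common spread between replicates, estimated over all 4 states and not only over the states compared. No label names macrophages. The labels' text on RNA extraction mentions asynchronous cells only.

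Macrophages are tissue-resident phagocytes that engulf dead cells, debris and microbes and degrade them in lysosomes. They grow and survive under signals from the receptor encoded by Csf1r, and the transcription factor PU.1, encoded by Spi1, switches on much of their gene programme. Some transcripts they hold in large amounts, such as those for lysosomal cathepsins, are made by most cell types, whereas others, such as those for the chains of complement C1q, are largely made by macrophages and their relatives.

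PU.1 binds DNA at a purine-rich core, so the stretch upstream of the start site was read for 25 of the 37 genes that RefSeq promoter windows (GRCm38.p6) covered. Adgre1, C1qa, Ccl4, Cd14, Cd52, Cd74, Csf1r, Ctsb, Lst1, Msr1, Spi1 and Tyrobp were not matched. The letters GAGGAAGT, or their reverse complement ACTTCCTC, stood within 250 bases upstream in C1qc and Pirb, 2 of the 25 genes (8%), against 755 of 27025 genes with a window (2.79%). The shorter letters GAGGAA, or TTCCTC on the other strand, which the longer motif contains, stood in 16 of the 25 (64%), against 6986 of all genes (25.9%). By the groups defined below, they stood in 6 of 10 G1-low genes (60%) and 6 of 9 shared genes (66.7%). They stood in 4 of 4 scarce and 0 of 2 intermediate genes, so they did not set the G1-low genes apart. The G1-low genes Lyz2, Gpnmb, Ms4a7 and Mpeg1 had no match. These are matches of letters, not sites of binding, and no test was made. The upstream windows of 4 genes are shown, 250 bases each, because these genes had the lowest levels in G1 cells relative to mitotic cells among those with a match, with the matching letters in capitals and each read in the direction of its gene.
Marco (chr1:120505025-120505274, minus strand): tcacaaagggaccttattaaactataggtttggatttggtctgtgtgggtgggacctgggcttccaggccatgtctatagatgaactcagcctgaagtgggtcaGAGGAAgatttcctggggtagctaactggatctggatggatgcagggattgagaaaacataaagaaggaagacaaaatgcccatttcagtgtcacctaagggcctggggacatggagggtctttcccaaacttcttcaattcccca
C1qb (chr4:136886201-136886450, minus strand): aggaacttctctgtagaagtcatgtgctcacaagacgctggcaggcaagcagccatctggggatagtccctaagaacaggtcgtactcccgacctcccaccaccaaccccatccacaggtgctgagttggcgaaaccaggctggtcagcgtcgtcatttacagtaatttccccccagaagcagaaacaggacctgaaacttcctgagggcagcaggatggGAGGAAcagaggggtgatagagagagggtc
C1qc (chr4:136892915-136893164, minus strand): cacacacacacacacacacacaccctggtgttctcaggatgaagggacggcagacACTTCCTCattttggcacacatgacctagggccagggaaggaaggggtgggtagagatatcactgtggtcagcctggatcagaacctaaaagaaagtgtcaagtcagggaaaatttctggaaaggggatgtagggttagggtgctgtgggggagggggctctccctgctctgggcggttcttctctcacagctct
Cd53 (chr3:106790150-106790399, minus strand): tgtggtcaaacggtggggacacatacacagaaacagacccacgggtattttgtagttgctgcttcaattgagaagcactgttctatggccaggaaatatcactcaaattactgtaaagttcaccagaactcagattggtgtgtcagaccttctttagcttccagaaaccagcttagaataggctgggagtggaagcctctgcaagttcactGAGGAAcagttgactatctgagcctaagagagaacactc

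In Marco the match began 146 bases before the start site, in C1qb 30 bases and in Cd53 39 bases before it. In C1qc the longer motif began 195 bases before the RefSeq start, on the other strand. That start lies inside the GENCODE span of C1qc given next, so most of its window is within that gene and the motif lies nearer to the GENCODE start. The C1qb and C1qc genes are neighbours on chromosome 4, at chr4:136880129-136886187 and chr4:136889804-136893065 (minus strand, GENCODE M21 on GRCm38).

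Total counts per library ran from 20410621 to 25615244, at which depth a floor of 3 counts stands for 0.117 to 0.147 CPM (reads of a gene per 1000000 reads of its library, here scaled between libraries by TMM, a method that removes differences in composition). Such floors cover counting error only. Pluripotency genes were high in every state: the summed level of 8 of them, among them Pou5f1 and Nanog, was 6145 and 6493 CPM in mitotic cells, 5875 and 5538 in early G1, 5385 and 5402 in late G1, and 5147 and 6684 in asynchronous cells. The number of genes called between states across the table is given beside each count of the macrophage genes, as a percentage of the 19101 tested.

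Itgam, Ptprc, Aif1, Ccl4 and Pirb, with a mean under 0.5 CPM in mitotic cells, were set apart as scarce whatever their ratio. The remaining macrophage genes fell into groups by the mean CPM of the 4 G1 libraries over that of the 2 mitotic libraries. Of these, 17 had a ratio under 0.25 and are named G1-low here: Lyz2, C1qa, C1qb, C1qc, Marco, Ctss, Tyrobp, Cd53, Mpeg1, Adgre1, Fcgr1, Gpnmb, Csf1r, Cd14, Cd52, Msr1 and Ms4a7. Their ratios ran from 0.0049 for Marco to 0.217 for Cd52, with a median of 0.0235. Both mitotic libraries were above all 4 G1 libraries in all 17, which the grouping favours, and above both asynchronous libraries in 15, the exceptions being C1qa and Cd52.

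Another 13 of the genes that were not scarce had a ratio above 0.5 and were read in every library: Laptm5, Fcgr3, Cd68, Spi1, Trem2, Lgmn, Ctsb, Ctsd, Mrc1, Cd74, Lcp1, Lst1 and Apoe. Their ratios ran from 0.503 for Spi1 to 1.28 for Fcgr3, and included Ctsb, Ctsd, Lgmn and Apoe, which many cell types express, as well as genes known from leukocytes such as Laptm5 and Lcp1. Cybb (0.292) and Fcer1g (0.293) lay between the bounds. The genes just inside the lower bound were Cd52 and Csf1r (0.210) and those just outside were Cybb and Fcer1g. Spi1 lay just above the upper bound, where Fcer1g was the nearest below it among the genes that were not scarce.

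The summed level of the 17 G1-low genes was 104 and 115 CPM in mitotic cells, 6.66 and 5.29 CPM in early G1, 4.56 and 9.85 CPM in late G1, and 30.1 and 42.5 CPM in asynchronous cells. The states did not overlap except for early and late G1. The mitotic mean of 110 ± 7.45 CPM (SD, n = 2) was 16.6 times the G1 mean and 3.02 times the asynchronous mean of 36.3 ± 8.73 CPM (SD, n = 2). In bulk RNA fewer macrophages and less RNA per macrophage cannot be told apart, nor can either from expression by the stem cells. The 13 shared genes summed to 1865 and 1865 CPM in mitotic cells, 1589 and 1501 in early G1, 1536 and 1518 in late G1, and 2863 and 4090 in asynchronous cells, so their order between states differed from that of the G1-low genes.

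**Figure D1:**
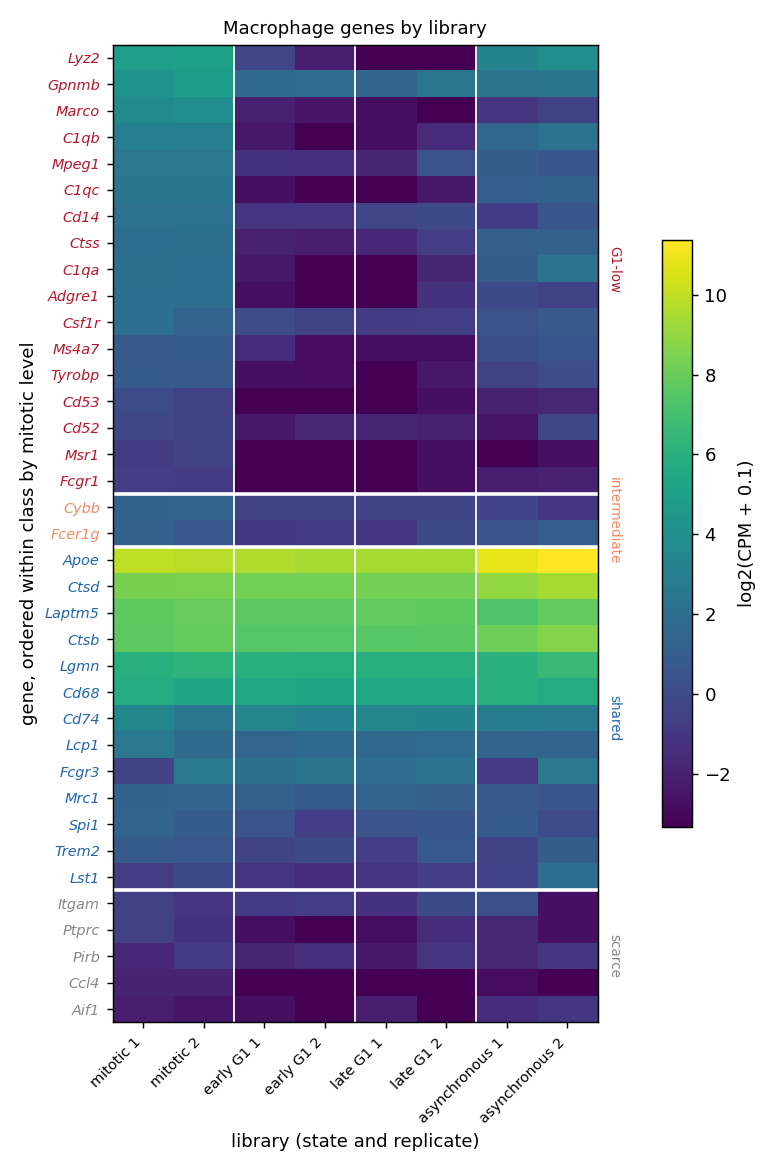
Level of each of the 37 macrophage genes (vertical axis, grouped as G1-low, intermediate, shared and scarce) in each of the 8 libraries (horizontal axis), as log2(CPM + 0.1) in colour. Most G1-low genes are bright in both mitotic libraries, dim in the 4 G1 libraries and between these in the asynchronous ones, while the shared genes other than Fcgr3 and Lst1 keep a similar colour in all 8 libraries.

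**Figure D2:**
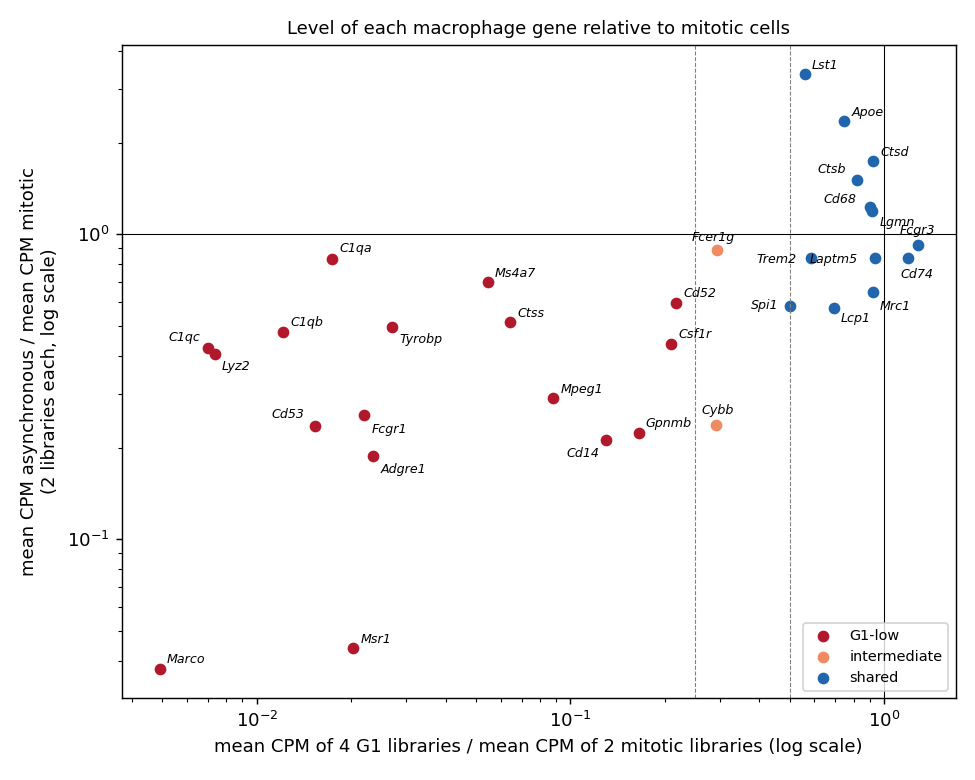
Each point is a macrophage gene, with its mean CPM in 4 G1 libraries over its mitotic mean on the horizontal axis and its asynchronous mean over its mitotic mean on the vertical axis, both on log scales. Dashed lines mark ratios of 0.25 and 0.5 and solid lines a ratio of 1. Marco is at the lower left (0.0049 and 0.0377), and Apoe, Ctsd and Ctsb are above the line of equality on the vertical axis. The 5 scarce genes are not drawn.

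Lyz2 encodes lysozyme M, a secreted enzyme that cleaves bacterial walls and a standard marker of myeloid cells. It had 28.7 and 30.8 CPM in mitotic cells, 0.756 and 0.116 CPM in early G1, 0 and 0 CPM in late G1, and 9.44 and 14.7 CPM in asynchronous cells. In reads these were 681 and 713, then 16 and 3, then 0 and 0, and 237 and 289. Lyz2 (ENSMUSG00000069516, chr10:117277331-117282321) was thus high in both mitotic libraries, intermediate in asynchronous cells and close to or at 0 in G1. Late G1 was at least 86.8-fold lower than asynchronous cells, with a floor of 3 counts set in each late G1 library (adjusted p = 0.000312). Early G1 was lower than asynchronous cells by a log2 fold change of -4.85 ± 0.55 (SE, adjusted p = 0.000737).

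C1qa, C1qb and C1qc encode the chains of C1q, the recognition unit that starts the classical complement pathway. C1qb had 7.84 and 7.60 CPM in mitotic cells, 0.0945 and 0 in early G1, 0.0456 and 0.235 in late G1, and 2.99 and 4.41 in asynchronous cells. C1qc had 5.06 and 5.05 CPM, 0.0472 and 0, 0 and 0.0938, and 1.99 and 2.28 in the same order. C1qa had 4.13 and 3.97 CPM, 0.0945 and 0, 0 and 0.188, and 1.95 and 4.77. All G1 libraries were under both asynchronous libraries for the 3 genes, and the second asynchronous library was above the mitotic ones for C1qa.

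All 3 C1q genes fell in early G1 and in late G1 relative to asynchronous cells. C1qb had 2 reads in the early G1 libraries together and 162 in the asynchronous ones, a ratio of 0.0118 after scaling (exact 95% counting interval 0.00141 to 0.0432, adjusted p = 0.000482). C1qc had 1 read in early G1 and 95 in asynchronous cells, a ratio of 0.0100 (0.000251 to 0.0572, adjusted p = 0.000527). The 2 reads of C1qa in early G1 against 143 in asynchronous cells gave a ratio of 0.0133 (0.00160 to 0.0490, adjusted p = 0.00179). These 3 genes therefore rest on almost no reads in early G1. In late G1 the log2 fold changes against asynchronous cells were -4.67 ± 0.59 for C1qb (SE, adjusted p = 0.000628) and -5.09 ± 0.86 for C1qa (SE, adjusted p = 0.00215), and C1qc had 2 reads against 95 (ratio 0.0218, interval 0.00261 to 0.0811, adjusted p = 0.000549).

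Marco, a scavenger receptor that binds bacteria and is best known from macrophages of the lung and lymphoid tissue, had the largest ratio of mitotic to G1 mean among the G1-low genes (204). Marco (ENSMUSG00000026390, chr1:120474538-120505024) had 12.4 and 14.5 CPM in mitotic cells, 0.142 and 0.0773 in early G1, 0.0456 and 0 in late G1, and 0.358 and 0.659 in asynchronous cells. Its reads in the mitotic libraries were 295 and 337, and no other library had more than 13. Marco was called lower in late G1 than in asynchronous cells, with 1 read against 22 (ratio 0.0471, exact 95% counting interval 0.00114 to 0.292, adjusted p = 0.00381). It was also called lower in early G1, with a log2 fold change of -2.16 ± 0.59 (SE, adjusted p = 0.0178). Marco passed the filter on low counts only with its mitotic libraries, so neither call carries weight as a test. The early G1 call was lost without early G1 replicate 1, without early G1 replicate 2 and without asynchronous replicate 2 (adjusted p = 0.0532, 0.129 and 0.0639).

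Msr1, the class A scavenger receptor for modified lipoproteins, was scarcer, with 0.464 and 0.691 CPM in mitotic cells, 0 and 0 in early G1, 0 and 0.0469 in late G1, and 0 and 0.0507 in asynchronous cells. Outside the mitotic libraries it had no more than 1 read anywhere, so its G1 and asynchronous levels could not be compared at this depth. Mrc1, the mannose receptor, differed from both: it had 2.23 and 2.33 CPM in mitotic cells, 2.17 and 1.66 in early G1, 2.46 and 2.11 in late G1, and 1.59 and 1.37 in asynchronous cells. Both mitotic libraries overlapped with the G1 libraries for Mrc1. Cd14, the co-receptor for bacterial lipopolysaccharide, had 4.34 and 4.62 CPM in mitotic cells, 0.378 and 0.386 in early G1, 0.730 and 0.844 in late G1, and 0.518 and 1.37 in asynchronous cells. Its early G1 libraries were under both asynchronous ones, but the difference did not pass the test (log2 fold change -1.26 ± 0.49 SE, adjusted p = 0.0667). It did without asynchronous replicate 1 (log2 fold change -1.82, adjusted p = 0.00327) and when genes of low count were kept in the fit (adjusted p = 0.0353).

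Adgre1 encodes F4/80, the classical surface marker of mouse macrophages. It had 4.00 and 3.97 CPM in mitotic cells, 0.0472 and 0 in early G1, 0 and 0.328 in late G1, and 0.836 and 0.659 in asynchronous cells. Adgre1 fell in early G1 relative to asynchronous cells, with 1 read against 34 (ratio 0.0280, exact 95% counting interval 0.000689 to 0.167, adjusted p = 0.0105), a call lost without early G1 replicate 2 (adjusted p = 0.0833). In late G1 its log2 fold change of -2.18 ± 0.82 (SE) did not pass the test (adjusted p = 0.0572) but did so without late G1 replicate 2 (adjusted p = 0.0120), the library that held its 7 reads of late G1. This library had the highest level of the 4 G1 libraries for 12 of the 17 G1-low genes.

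Csf1r, the receptor for the growth factor CSF1 on which most macrophages depend, had 3.96 and 2.37 CPM in mitotic cells, 0.945 and 0.657 in early G1, 0.502 and 0.563 in late G1, and 1.15 and 1.62 in asynchronous cells. The states did not overlap between mitotic and other libraries. Csf1r fell in late G1 relative to asynchronous cells (log2 fold change -1.37 ± 0.42 SE, adjusted p = 0.0269), but not without late G1 replicate 1, late G1 replicate 2 or asynchronous replicate 2 (adjusted p = 0.135, 0.102 and 0.0839). Spi1, which encodes PU.1, had 2.57 and 1.86 CPM in mitotic cells, 1.23 and 0.541 in early G1, 1.23 and 1.45 in late G1, and 1.67 and 0.913 in asynchronous cells. Its mitotic libraries were the highest, while G1 and asynchronous cells overlapped and their difference did not pass the test (adjusted p = 0.332 in early G1 and 0.954 in late G1).

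Several members are subunits or partners of activating receptors. Tyrobp encodes DAP12, an adaptor with an ITAM signalling motif that Trem2, a lipid-sensing receptor, uses in macrophages. Tyrobp had 1.73 and 1.60 CPM in mitotic cells, 0.0472 and 0.0386 in early G1, 0 and 0.0938 in late G1, and 0.637 and 1.01 in asynchronous cells, whereas Trem2 had 1.69 and 1.47 CPM, 0.708 and 0.889, 0.547 and 1.55, and 0.717 and 1.93 in that order. Tyrobp thus reached almost no reads in G1, while Trem2 in mitotic cells was above early G1 and overlapped with late G1 and asynchronous cells. Tyrobp fell in early and in late G1 relative to asynchronous cells, each with 2 reads against 36 (ratios 0.0529, interval 0.00617 to 0.206, adjusted p = 0.00356, and 0.0576, interval 0.00672 to 0.224, adjusted p = 0.00364). Trem2 passed neither test (adjusted p = 0.360 and 0.680), although it did in early G1 when both first replicates of mitotic and asynchronous cells were left out (adjusted p = 0.0112).

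Fcer1g, the common gamma chain that signals for Fc receptors, had 2.19 and 1.47 CPM in mitotic cells, 0.425 and 0.464 in early G1, 0.410 and 0.844 in late G1, and 1.23 and 2.03 in asynchronous cells. It fell in early G1 (log2 fold change -1.85 ± 0.47 SE, adjusted p = 0.0135) and in late G1 (-1.36 ± 0.45 SE, adjusted p = 0.0367) relative to asynchronous cells. The early G1 call was lost without either early G1 library (adjusted p = 0.0798 without replicate 1 and 0.0794 without replicate 2) and the late G1 call without late G1 replicate 1, asynchronous replicate 2 or either early G1 library (adjusted p = 0.221, 0.128, 0.0635 and 0.0623). Fcgr1, the high-affinity receptor for IgG, had 0.548 and 0.518 CPM in mitotic cells, 0 and 0 in early G1, 0 and 0.0469 in late G1, and 0.119 and 0.152 in asynchronous cells. Its 6 asynchronous reads were at the floor, and its early G1 call (adjusted p = 0.0382) was lost in each of the 8 fits that left out 1 library.

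Fcgr3, the low-affinity IgG receptor that natural killer cells also carry, split by library and not by state. It had 0.632 and 6.04 CPM in mitotic cells, 4.16 and 4.91 in early G1, 3.65 and 4.36 in late G1, and 0.438 and 5.73 in asynchronous cells. The first replicate was low in mitotic and asynchronous cells only. Pirb, an inhibitory receptor of the Ig superfamily, had 5 and 11 reads in mitotic cells, 4 and 8 in early G1, 2 and 8 in late G1, and 5 and 8 in asynchronous cells. All states overlapped for Pirb.

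Among the enzymes and membrane proteins of lysosomes, Ctss stood apart from the other cathepsins. Ctss encodes cathepsin S, a protease of antigen-presenting cells, and had 3.92 and 4.23 CPM in mitotic cells, 0.142 and 0.116 in early G1, 0.228 and 0.563 in late G1, and 2.07 and 2.13 in asynchronous cells. Ctss fell relative to asynchronous cells in early G1 (log2 fold change -3.98 ± 0.46 SE, adjusted p = 0.000544) and in late G1 (-2.40 ± 0.39 SE, adjusted p = 0.0019). Ctsb, cathepsin B, is a lysosomal protease of most cells and had 208 and 241 CPM in mitotic cells, 180 and 177 in early G1, 186 and 193 in late G1, and 284 and 394 in asynchronous cells. Ctsd, cathepsin D, had 322 and 344 CPM, 297 and 302, 316 and 315, and 502 and 660. Both were highest in the 2 asynchronous libraries and lower in all the other 6.

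Ctsb fell in early G1 by 0.93 ± 0.17 and in late G1 by 0.84 ± 0.17 on the log2 scale relative to asynchronous cells (SE, adjusted p = 0.0031 and 0.00415). Ctsd fell by 0.96 ± 0.14 and 0.88 ± 0.14 (SE, adjusted p = 0.00154 and 0.00186). Lgmn, the asparaginyl endopeptidase legumain, had 60.0 and 74.9 CPM in mitotic cells, 62.7 and 62.3 in early G1, 60.9 and 62.3 in late G1, and 65.3 and 94.9 in asynchronous cells. Lgmn did not pass the test in early or late G1 against asynchronous cells (adjusted p = 0.152 and 0.131), but passed it without asynchronous replicate 1 (adjusted p = 0.00314 in early G1 and 0.00252 in late G1). The broad lysosomal list of 24 genes, which holds no macrophage gene of the 37, showed a like order: its summed level was 2836 and 3066 CPM in mitotic cells, 2756 and 2725 in early G1, 2750 and 2775 in late G1, and 3850 and 4332 in asynchronous cells.

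Cd68, a heavily glycosylated lysosomal protein used as a macrophage marker, had 54.9 and 40.0 CPM in mitotic cells, 43.7 and 39.4 in early G1, 43.7 and 44.9 in late G1, and 64.1 and 52.7 in asynchronous cells. Laptm5, a lysosomal membrane protein of blood cells, had 217 and 250 CPM, 214 and 212, 231 and 217, and 159 and 232. Neither gene separated the mitotic from the G1 libraries. Cd68 in early G1 against asynchronous cells was just short of a call (log2 fold change -0.49 ± 0.18 SE, adjusted p = 0.0521). It was called lower there by DESeq2 (adjusted p = 0.0434), without the filter on low counts (0.038) and with a replicate block (0.0334). In late G1 it did not pass the test (-0.40 ± 0.18 SE, adjusted p = 0.097). Laptm5 passed in neither (adjusted p = 0.587 and 0.38). Without asynchronous replicate 2 the log2 fold changes in early and late G1 were -0.63 and -0.53 for Cd68. For Laptm5 they were 0.42 and 0.49, against 0.13 and 0.20 with all libraries. Per length Laptm5 (mean of 61.6 RPKM, which is CPM per kilobase of exon) and Cd68 (37.7) were above Lyz2 (22.6), C1qb (7.09) and Marco (7.01) in mitotic cells. Gpnmb, a transmembrane glycoprotein of endosomes that macrophages and pigment cells make, had 18.3 and 26.2 CPM in mitotic cells, 3.31 and 3.36 in early G1, 2.60 and 5.44 in late G1, and 4.90 and 5.07 in asynchronous cells. Gpnmb thus kept at least 57 reads in every library, unlike most G1-low genes, and did not pass the test in G1 against asynchronous cells (adjusted p = 0.188 in early G1 and 0.466 in late G1).

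Mpeg1 encodes perforin-2, a pore-forming protein against engulfed bacteria. It had 5.60 and 5.70 CPM in mitotic cells, 0.331 and 0.309 in early G1, 0.182 and 1.17 in late G1, and 1.91 and 1.37 in asynchronous cells. Mpeg1 fell in early G1 relative to asynchronous cells (log2 fold change -2.35 ± 0.65 SE, adjusted p = 0.0196), a call lost without early G1 replicate 1 (adjusted p = 0.0906) or replicate 2 (0.112). In late G1 it did not pass the test (adjusted p = 0.106), but did without late G1 replicate 2 (adjusted p = 0.00895). Cybb, the catalytic subunit of the phagocyte NADPH oxidase, had 2.23 and 2.33 CPM in mitotic cells, 0.708 and 0.618 in early G1, 0.638 and 0.704 in late G1, and 0.677 and 0.406 in asynchronous cells. The G1 and asynchronous levels of Cybb overlapped and did not pass the test (adjusted p = 0.620 in early G1 and 0.582 in late G1).

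Among surface proteins of leukocytes, Ms4a7, a multi-span membrane protein of macrophages, had 1.60 and 1.77 CPM in mitotic cells, 0.236 and 0.0386 in early G1, 0.0456 and 0.0469 in late G1, and 1.04 and 1.32 in asynchronous cells. It fell relative to asynchronous cells in early G1 (log2 fold change -3.12 ± 0.59 SE, adjusted p = 0.0039) and in late G1, with 2 reads against 52 (ratio 0.0399, exact 95% counting interval 0.00471 to 0.151, adjusted p = 0.00161). Cd53, a tetraspanin of leukocytes, had 22 and 14 reads in mitotic cells, 0 and 0 in early G1, 0 and 1 in late G1, and 4 and 4 in asynchronous cells. Early G1 was at least 1.41-fold lower than asynchronous cells for Cd53 (adjusted p = 0.0268), a call lost without mitotic replicate 1, either early G1 library or asynchronous replicate 2 (adjusted p from 0.0510 to 0.120). Cd52, a small glycosylated membrane protein of lymphocytes and macrophages, had 18 and 15 reads in mitotic cells, 2 and 5 in early G1, 4 and 3 in late G1, and 2 and 15 in asynchronous cells, with the asynchronous libraries on either side of the G1 ones. Cd52 passed the test in early and late G1 against asynchronous cells only with asynchronous replicate 1 left out, alone (adjusted p = 0.0138 and 0.0176) or with mitotic replicate 1.

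Ptprc, which encodes the leukocyte phosphatase CD45, had 14 and 8 reads in mitotic cells, 1 and 0 in early G1, 1 and 6 in late G1, and 5 and 1 in asynchronous cells. Both mitotic libraries were above the other 6, but CD45 was under 1 CPM in all 8. Itgam, the integrin chain CD11b, had 14 and 9 reads in mitotic cells, 10 and 14 in early G1, 7 and 19 in late G1, and 28 and 1 in asynchronous cells, so the asynchronous libraries bracketed all others. Aif1 and Ccl4 had fewer still. Aif1, an actin-binding protein of microglia and macrophages, had 3 and 2 reads in mitotic cells against 7 and 8 in asynchronous cells and at most 3 in a G1 library, and Ccl4, a chemokine, had 4 and 4 reads in mitotic cells, 1 and 0 in asynchronous cells and none in G1. Counts of this size are at or near the floor of 3. Of the defining macrophage markers, Adgre1, Csf1r and C1q were thus well above the floor in mitotic cells, while CD45 and CD11b were scarce.

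Cd74, the invariant chain of MHC class II, had 10.7 and 5.35 CPM in mitotic cells, 10.0 and 8.65 in early G1, 10.0 and 9.48 in late G1, and 7.21 and 6.29 in asynchronous cells. Lcp1, the actin-bundling protein L-plastin, had 5.52 and 3.24 CPM, 2.64 and 3.09, 3.01 and 3.38, and 2.55 and 2.48. Lst1, a small transmembrane protein of leukocytes, had 0.548 and 0.863 CPM in mitotic cells, 0.378 and 0.270 in early G1, 0.365 and 0.563 in late G1, and 0.677 and 4.06 in asynchronous cells. Cd74 was called higher in late G1 than in asynchronous cells without either mitotic library (adjusted p = 0.0459 without replicate 1 and 0.0437 without replicate 2), but not with all libraries. The 2 mitotic libraries lay apart for Cd74 and Lcp1, and the 2 asynchronous ones for Lst1. Lst1 was called lower in early G1 (adjusted p = 0.0225) and late G1 (adjusted p = 0.0395) than in asynchronous cells, but the early G1 call was lost without asynchronous replicate 2, early G1 replicate 1 or early G1 replicate 2 (adjusted p = 0.165, 0.0849 and 0.129), and the late G1 call was lost without any single library except asynchronous replicate 1.

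**Figure D3:**
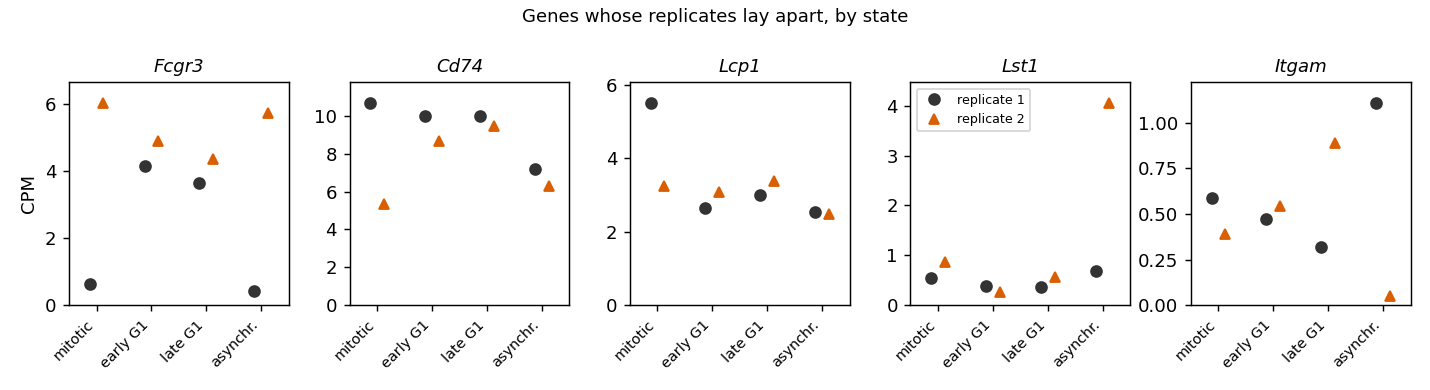
CPM (vertical axis) of Fcgr3, Cd74, Lcp1, Lst1 and Itgam in the 2 libraries of each state (horizontal axis), with replicate 1 as circles and replicate 2 as triangles. Fcgr3 is 0.632 and 6.04 CPM in the mitotic libraries and 0.438 and 5.73 CPM in the asynchronous ones, while its 4 G1 libraries lie between 3.65 and 4.91 CPM.

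Apoe encodes apolipoprotein E, a lipid carrier secreted by macrophages and many other cells, and was the most abundant of the 37 per length (438 mean RPKM in mitotic cells, ahead of Ctsd with 142). It had 979 and 895 CPM in mitotic cells, 770 and 689 in early G1, 676 and 664 in late G1, and 1774 and 2634 in asynchronous cells. Apoe was highest in the asynchronous libraries and fell in early G1 (log2 fold change -1.60 ± 0.18 SE, adjusted p = 0.00052) and in late G1 (-1.72 ± 0.18 SE, adjusted p = 0.000323) relative to them. The shared genes were dominated by Apoe.

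Between mitotic and asynchronous cells, 13 of the 33 genes tested were called higher in mitotic cells, namely Adgre1, C1qc, Cd14, Cd53, Csf1r, Ctss, Cybb, Fcgr1, Gpnmb, Lyz2, Marco, Mpeg1 and Msr1. Apoe, Ctsb and Ctsd were called lower. Of all genes tested, 18.3% were called higher (3487) and 22.4% lower (4280), with a gene called at an adjusted p under 0.05. The members had been chosen with their mitotic levels known, so nothing is read from these counts. Without mitotic replicate 1 the total of 16 calls was 7, and without mitotic replicate 2 it was 8.

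Against mitotic cells, 18 of the 33 genes were called lower and 0 higher in early G1, where 1.42% (272) and 3.21% (613) of all genes were. In late G1 the count was 17 lower and 0 higher, where 4.04% (772) and 5.43% (1038) of all genes were. These comparisons too used the levels by which the genes were chosen and carry no weight as tests. The 18 calls in early G1 became 6, 5, 6 and 4 without mitotic replicate 1, mitotic replicate 2, early G1 replicate 1 and early G1 replicate 2. Those in late G1 became 6 and 9 without mitotic replicates 1 and 2, and 4 and 9 without late G1 replicates 1 and 2.

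G1 cells were next set against asynchronous cells, so that neither state compared was mitotic. The mitotic libraries still entered the fit, where they had a part in the filter, the scaling and the estimate of the spread. Early G1 was lower than asynchronous cells for 17 of the 33 genes tested and higher for 0, where 24.7% (4720) and 21.3% (4064) of all genes were called. The 17 were Lyz2, C1qa, C1qb, C1qc, Marco, Ctss, Tyrobp, Cd53, Mpeg1, Adgre1, Fcgr1, Ms4a7, Fcer1g, Lst1, Apoe, Ctsb and Ctsd. Cd53 and Fcgr1, and Msr1 among the genes not called, had under 10 reads in every library but the mitotic ones. They passed the filter, here and for late G1, through those libraries alone, so the calls of Cd53 and Fcgr1 carry no weight as tests. Outside the mitotic libraries, Marco and Cd52 reached 10 reads only in asynchronous replicate 2. The filter asked for more than 1 such library, so both passed it only with the mitotic libraries. The calls of Marco therefore carry no weight as tests either. The median log2 fold change was -1.39, or -0.93 with the genes that had no reads in early G1 set at the floor, against -0.03 over all genes. Of the 17 calls, 10 held in all 8 fits that left out 1 library: Lyz2, C1qa, C1qb, C1qc, Ctss, Tyrobp, Ms4a7, Apoe, Ctsb and Ctsd. The total was 10 without early G1 replicate 2 and 11 without early G1 replicate 1.

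Late G1 was lower than asynchronous cells for 14 of the 33 genes and higher for 0, where 26% (4971) and 22.7% (4334) of all genes were called. The median log2 fold change was -1.26, against -0.03 over all genes. The 14 were Lyz2, C1qa, C1qb, C1qc, Marco, Ctss, Tyrobp, Ms4a7, Csf1r, Fcer1g, Lst1, Apoe, Ctsb and Ctsd, and all but Csf1r, Fcer1g and Lst1 held in all 8 fits that left out 1 library. Marco passed the filter only with the mitotic libraries, so its call carries no weight as a test. The genes were proposed with results of all 8 libraries known, so the counts are no independent evidence. Markers of feeder fibroblasts moved with this difference: their summed level over 16 genes was 60.7 and 56.3 CPM in early G1 and 34.8 and 26.7 CPM in late G1, against 1292 and 1261 CPM in asynchronous cells. Their part in the result was not tested.

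Between late and early G1, 0 of the 33 genes and 0 of all 19101 (0% higher, 0% lower) were called with edgeR. DESeq2 also called 0 of the 33, and 2 had an unadjusted p under 0.05. Of 15 feeder fibroblast genes tested, DESeq2 called 4, and 10 had an unadjusted p under 0.05 with edgeR. The edgeR fit shared a spread over all states. Replicates lay further apart in asynchronous and mitotic cells (mean chi-square per gene 58.6 and 19.9) than in early and late G1 (3.67 and 2.81). The part of this in the 0 calls was not tested. Lyz2, with 0 and 0 reads in late G1 against 16 and 3 in early G1, was called only when genes of low count were kept in the fit (adjusted p = 0.00125). At this depth the G1-low genes could not be ordered between the G1 times, since their summed level of 4.56 and 9.85 CPM in late G1 spanned the 6.66 and 5.29 CPM of early G1.

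**Figure D4:**
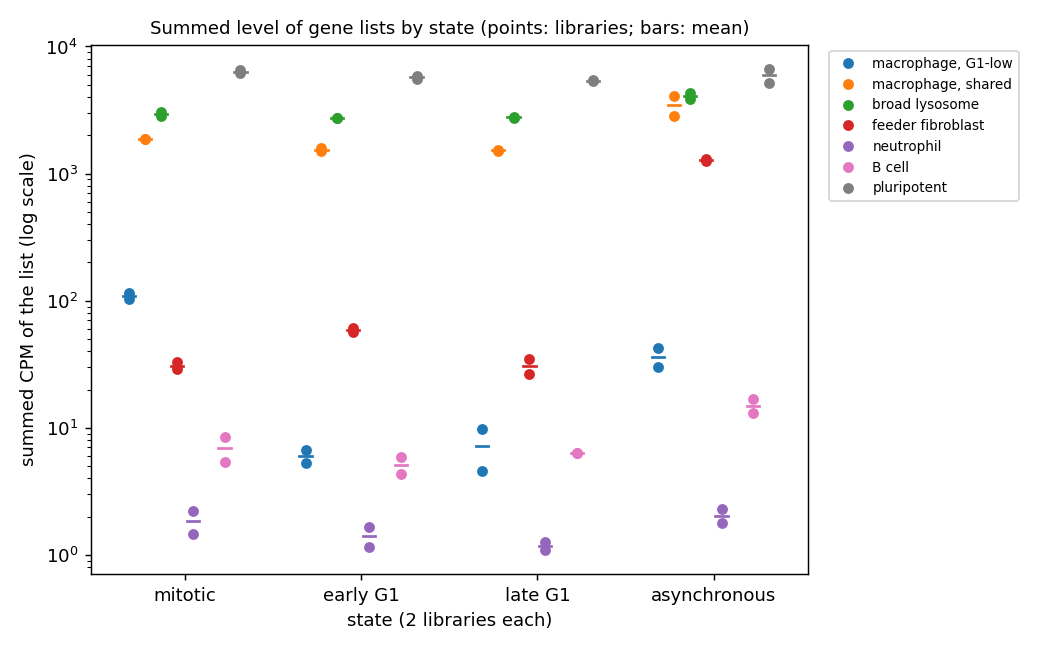
Summed CPM (vertical axis, log scale) of gene lists in each state (horizontal axis), with a point for each library and a bar for the mean of 2. The G1-low macrophage genes are at 104 and 115 CPM in mitotic cells and at 30.1 and 42.5 CPM in asynchronous cells, whereas feeder fibroblast markers are at 28.8 and 32.9 CPM in mitotic cells and at 1292 and 1261 CPM in asynchronous cells.

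The macrophage genes did not keep the same proportions in mitotic and asynchronous libraries. For every 100 reads of C1qb, Marco had 159 and 191 reads in the mitotic libraries and 12 and 14.9 in the asynchronous ones. Adgre1 had 51.1 and 52.3 in mitotic and 28.0 and 14.9 in asynchronous libraries, Cd14 had 55.4 and 60.8 against 17.3 and 31.0, and Gpnmb had 233 and 344 against 164 and 115. These 4 genes were higher relative to C1qb in both mitotic libraries than in either asynchronous one. So were Mpeg1, with 71.5 and 75 against 64 and 31, and Cd53, with 11.8 and 7.95 against 5.33 and 4.6. Cd53 had only 4 reads in each asynchronous library. Against every 100 reads of Lyz2, Marco had 43.3 and 47.3 reads in mitotic and 3.80 and 4.50 in asynchronous libraries.

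Tyrobp overlapped in its proportion to C1qb, with 22.0 and 21.0 reads per 100 in mitotic libraries and 21.3 and 23.0 in asynchronous ones. C1qc had 64.5 and 66.5 in mitotic and 66.7 and 51.7 in asynchronous libraries, Ctss had 50.0 and 55.7 against 69.3 and 48.3, and Csf1r had 50.5 and 31.2 against 38.7 and 36.8. For these the libraries of both states overlapped. C1qa was lower relative to C1qb in the mitotic libraries, with 52.7 and 52.3 reads against 65.3 and 108, as was Ms4a7, with 20.4 and 23.3 against 34.7 and 29.9. Such ratios within a library show unequal change between the genes and do not depend on how libraries are scaled.

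**Figure D5:**
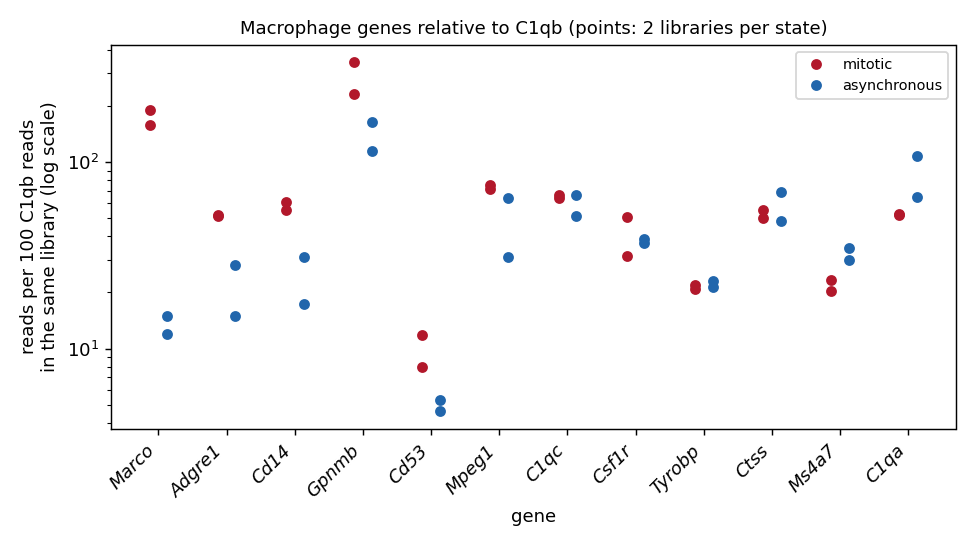
Reads of 12 of the G1-low genes (horizontal axis) per 100 reads of C1qb in the same library (vertical axis, log scale), with mitotic libraries left of asynchronous ones. Marco is at 159 and 191 in the mitotic libraries and at 12 and 14.9 in the asynchronous ones, while Tyrobp lies between 21.0 and 23.0 in all 4.

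A further 86 macrophage genes that are not among the 37, in 5 lists (leukocyte signalling, other macrophage receptors, secreted proteins, myeloid transcription factors and MHC class II), were read in the same fits, and 56 were tested. Against mitotic cells, 8 of the 56 were called lower in early G1 and 0 higher, and 11 were lower in late G1 and 0 higher. Over all genes 1.42% were lower in early G1 and 4.04% in late G1. The median log2 fold change was -0.42 in early G1 and -0.44 in late G1, against -0.01 over all genes in each. The 8 were C3ar1, Ccl3, Csf2rb, Hcls1, Il1rn, Ms4a6d, Ncf4 and Plek, and Cxcl16, Il1b and Pf4 joined them in late G1. Ccl3, Il1b, Il1rn, Ms4a6d and Ncf4 had under 10 reads in every library but the mitotic ones. They passed the filter through those libraries alone and could only come out lower in G1. Csf2rb, with 17 reads in asynchronous, 2 in early G1 and 9 in late G1 cells, also passed it only with the mitotic libraries. The counts of calls are therefore in part set by the filter.

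C3ar1, the receptor for complement fragment C3a, had 2.40 and 2.37 CPM in mitotic cells, 0 and 0.0386 in early G1, 0 and 0.281 in late G1, and 1.23 and 0.659 in asynchronous cells. Plek, the leukocyte signalling protein pleckstrin, had 1.05 and 1.04 CPM, 0.0472 and 0, 0 and 0, and 0.637 and 0.558. Ms4a6d, of the same family as Ms4a7, had 1.31 and 1.04 CPM, 0 and 0, 0.0456 and 0, and 0.119 and 0.253. All 3 were above every G1 library in both mitotic libraries. C3ar1 had 1 read in early G1 against 112 in mitotic cells (ratio 0.0089, exact 95% counting interval 0.000223 to 0.0506, adjusted p = 0.0158), Plek was at least 7.53-fold lower in late G1 than in mitotic cells (adjusted p = 0.00882), and Ms4a6d was at least 9.09-fold lower in early G1 than in mitotic cells (adjusted p = 0.0137). Csf2rb, a subunit of cytokine receptors, Ncf4, an oxidase subunit, and Ccl3, a chemokine, had the next smallest p in early G1 (adjusted p = 0.0202, 0.0305 and 0.0381).

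None of these calls of the 86 genes against mitotic cells held in all 8 fits that left out 1 library. The count in early G1 was 0 without either mitotic or either early G1 library, 4 without either late G1 library and 19 without either asynchronous library. In late G1 it was 0 when a mitotic library or late G1 replicate 1 was left out, 1 when late G1 replicate 2 was, 4 without either early G1 library and 19 without either asynchronous library. DESeq2 called 8 in early G1 and 4 in late G1.

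Between mitotic and asynchronous cells, 9 of the 56 were higher and 5 lower in mitotic cells, beside 18.3% and 22.4% of all genes, and the median log2 fold change was 0.09 against -0.05 over all genes. Among the 9, Ccl3, Il1b, Il1rn and Ms4a6d had passed the filter through the mitotic libraries alone. Nckap1l, a haematopoietic actin regulator, had 10.5 and 9.41 CPM in mitotic cells and 2.63 and 2.94 in asynchronous cells (log2 fold change 1.84 ± 0.19 SE, adjusted p = 0.000323), but also 8.46 to 9.99 CPM in the 4 G1 libraries. Itgb2, the beta chain of leukocyte integrins, was likewise higher (4.13 and 3.63 CPM in mitotic cells, against 1.04 and 0.355 in asynchronous cells, log2 fold change 2.43 ± 0.47 SE, adjusted p = 0.00476), with 1.66 to 3.57 CPM in G1. Il1rn, the interleukin-1 receptor antagonist, had 14 and 14 reads in the mitotic libraries and 0 in the other 6 and was at least 4.40-fold higher in mitotic than in asynchronous cells (adjusted p = 0.00992). H2-Ab1, an MHC class II chain, and Runx1, a haematopoietic transcription factor, were lower in mitotic cells (log2 fold change -2.69 ± 0.35 and -2.12 ± 0.29 SE, adjusted p = 0.000938 and 0.00106). Ms4a6d, with the CPM given above, was higher (log2 fold change 2.66 ± 0.59 SE, adjusted p = 0.0111). Of the 14 calls, those of Nckap1l, Itgb2, H2-Ab1 and Runx1 held in all 8 fits that left out 1 library.

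Some leukocyte genes were read at high levels in every state. Inpp5d, a lipid phosphatase of blood cells, averaged 150 ± 19.9 CPM in mitotic cells (SD, n = 2), 193 in early G1, 193 in late G1 and 158 in asynchronous cells, and Spp1, osteopontin, averaged 324, 287, 286 and 182 CPM in that order. The 86 genes summed to 890 and 873 CPM in mitotic cells, 833 and 834 in early G1, 816 and 829 in late G1, and 840 and 823 in asynchronous cells.

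Markers of other cells were read in the same libraries. Genes with 0 reads in all 8 libraries were 3 of 13 on the neutrophil list (S100a9 among them), 5 of 7 on the mast cell list (Mcpt4 and Cpa3), 3 of 8 on the dendritic list (Clec9a and Siglech), 2 of 9 on the erythroid and platelet list (Hbb-bs) and 2 of 12 on the T and NK list (Gzmb). The other genes of these lists had reads in at least 1 library. The neutrophil list of 13 genes summed to 2.23 and 1.47 CPM in mitotic cells, 1.65 and 1.16 in early G1, 1.09 and 1.27 in late G1, and 2.31 and 1.77 in asynchronous cells. B cell markers summed to 8.39 and 5.40 CPM in mitotic cells, 5.90 and 4.37 in early G1, 6.29 and 6.33 in late G1, and 16.7 and 13.1 in asynchronous cells. The neutrophil and B cell lists had their highest mean in asynchronous cells. Osteoclast markers, which macrophages share in part, were at 15.3 and 15.0 CPM in mitotic cells, 11.9 to 16.8 CPM in G1 cells, and 82.8 and 108 CPM in asynchronous cells, most of it from Acp5.

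Among the other lists, the mean summed level in mitotic, early G1, late G1 and asynchronous cells was 8.05, 6.20, 6.76 and 16.3 CPM for monocyte markers, nearly all from Plac8. For dendritic cell markers it was 6.91, 5.29, 5.64 and 5.34 CPM, nearly all from Zbtb46. For T and NK cell markers it was 42.1, 44.8, 42.4 and 55.4 CPM, mostly from Lck. Microglial markers, led by Sall1, had 144, 146, 116 and 118 CPM, and those of alveolar macrophages and Kupffer cells, led by Car4, had 4.66, 3.89, 3.74 and 9.11 CPM. Endothelial markers had 22.0, 24.7, 20.6 and 34.4 CPM, and the erythroid and platelet list, led by Itga2b, had 6.48, 3.95, 3.21 and 6.00 CPM. This last list had the order of the G1-low genes in its means and was lower in all 4 G1 libraries than in the other 4, with a mitotic mean 1.81 times the G1 mean and 1.08 times the asynchronous mean, while its mitotic and asynchronous libraries overlapped. The part of these cells in the results was not tested.

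The pattern of the G1-low genes was then sought in the whole table, as a description. With at least 2 CPM in both mitotic libraries and less than 0.2 of the mitotic mean in each of the other 6 libraries, 7 genes were found, of which 5 were clone names or pseudogenes. The others were Marco and Slc15a3, a lysosomal peptide transporter, which had 72 and 73 reads in mitotic cells, 2 and 2 in early G1, 0 and 1 in late G1, and 7 and 6 in asynchronous cells. With the asynchronous libraries left out of the rule, a change made after the values were seen, 18 genes were found. They comprised 8 of the 37 (Adgre1, C1qa, C1qb, C1qc, Cd14, Ctss, Lyz2 and Marco), C3ar1, Slc15a3, Clec4d, a myeloid lectin receptor, and 7 clone names or pseudogenes. Clec4d had 52 and 71 reads in mitotic cells, 1 and 0 in early G1, 0 and 3 in late G1, and 9 and 14 in asynchronous cells.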

How the data were processed

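Poly(A) RNA was sequenced from 8 libraries, 4 states with 2 libraries each, with a strand-marking kit as single reads, per the labels' protocols. The submitters' processing notes name the build mm10 and, with no version or role, HTSeq, TopHat2 and SAMtools. Which annotation release and strand setting served for counting is not given in the sources used here, so overlapping genes are uncertain. The table of 54838 Ensembl genes holds raw counts, as deposited by the authors. GENCODE M21 (GRCm38) gave symbols for 54723 IDs, coordinates and exon lengths. Promoter windows came from RefSeq (GRCm38.p6).

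Differences were tested with edgeR 4.0.16 (R 4.3.3): filterByExpr with a minimum count of 10 left 19101 genes, libraries were scaled by TMM, and all 8 libraries entered 1 robust quasi-likelihood fit by state (4 residual degrees of freedom, two-sided tests, replicate number not used). Adjusted p values are Benjamini-Hochberg values over all genes tested within a comparison, called under 0.05, and come from edgeR unless another tool is named. Levels are TMM-scaled CPM, as mean and SD of n = 2. RPKM used the summed exon length. A fold against a state without reads was set against 3 counts in each of its libraries, and ratios with 1 to 3 reads carry exact conditional intervals (95%), which cover counting error only. The fit was tested on simulated data. DESeq2 1.42.0, other scaling, no filter, fits of 2 groups and fits without each library were alternatives.

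The 37 genes, the groups and the other lists were chosen with earlier results of these data known. All 37 are named. Of other macrophage lists the rule took the 6 genes with the smallest adjusted p, of further lists the highest in mitotic cells. Markers at 0, Clec4d and genes whose replicates lay apart were named after their values were seen. Replicate numbers were not used as pairs, since the labels do not say whether a number marks the same clone in every state.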

Additional observations from a re-analysis of the deposited data

How the results depend on the processing

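Leaving out 1 library at a time, with the lone sample assumed to vary like the other groups, gave 7 to 16 calls of the 37 genes for mitotic against asynchronous cells (16 with all libraries), 4 to 23 for early G1 against mitotic cells (18), 4 to 20 for late G1 against mitotic cells (17), 10 to 20 for early G1 against asynchronous cells (17) and 11 to 17 for late G1 against asynchronous cells (14). Late against early G1 gave 0 in each, and 1 without the filter on low counts. For the 86 other macrophage genes these fits gave 10 to 19 calls for mitotic against asynchronous cells (14), 0 to 19 for early G1 against mitotic cells (8) and 0 to 19 for late G1 against mitotic cells (11). Without the filter they had 24, 19 and 18 calls in these comparisons, and 31, 25 and 26 with the first replicates of mitotic and asynchronous cells left out together, an alternative chosen after seeing the data, which gave 17, 27, 25, 24 and 21 for the 37. For the 86 others, a fit of mitotic and asynchronous cells alone gave 9, and DESeq2 gave 4 in late G1 against mitotic cells. For the 37, DESeq2 gave 14 in the latter comparison. The cause was not tested.

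The G1-low group of 17 became 15 with bounds of 0.2 and 0.67 and 7 with asynchronous in place of G1 libraries; the intermediate group of 2 became 7 under each. The values of 2 single genes, Itgam and Fcgr3, passed the threshold in the other direction under an alternative. Itgam ran from -1.13 to 3.20 in early G1 and from -0.92 to 3.44 in late G1 (log2 against asynchronous cells) over the fits without 1 library, the highest without asynchronous replicate 1, where it had 28 reads against 1 in the other, and Fcgr3 was at -0.51 in late G1 against 0.41 with all libraries when both first replicates were left out. Of 1793 values of single genes under an alternative, 1566 stayed on the same side of the threshold and 187 were no longer past it. A further 35 newly passed it in the same direction and 5 in the other direction. Changes of direction among values that did not pass it occurred as well and were not counted. Whether replicate numbers mark the same clones is not stated in the labels, and same-numbered libraries deviated together in mitotic and asynchronous cells but in no other pair of states (correlation over genes of the differences between replicates 0.621 for mitotic with asynchronous cells, but -0.365 for early G1 with asynchronous cells). With the number as a replicate block the 37 genes had 16, 17, 17, 17, 14 and 0 calls and the 86 others 14, 7 and 10. With 2 libraries per state and under 10 reads of many G1-low genes in G1, changes of these genes between the G1 times could not be read.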
